A study of Macaca mulatta with 11 samples.

Results

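The transcripts described here are those of 5 genes of the transforming growth factor beta (TGF-beta) and bone morphogenetic protein (BMP) pathway, SMAD6, SMAD7, BMPER, GREM1 and SMAD4. All probe sets annotated with 1 of these symbols were taken, which gave 8 of the 52766 probe sets tested and 5 of the 14132 genes measured. SMAD6 and SMAD7 are intracellular inhibitors and BMPER and GREM1 are secreted BMP-binding proteins, whereas SMAD4 is neither an inhibitor nor an antagonist but the shared partner of the signalling SMADs. The 5 genes were selected on their measured levels in these same arrays, known from earlier results to differ between groups, so those levels are given as a description, with no test.

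RNA of rhesus monkey (Macaca mulatta) cumulus cells, the somatic cells around the oocyte, was measured on 11 Affymetrix arrays. All samples followed stimulation with follicle-stimulating hormone (FSH). The 4 pre-maturation samples (PM) came from immature cumulus-oocyte complexes after FSH alone, the 3 in vitro matured samples (IVM) from complexes matured in culture after FSH, and the 4 in vivo matured samples (VVM) from complexes that matured in vivo, the FSH being followed by human chorionic gonadotropin (hCG). The series compares IVM with VVM to find cumulus markers of oocyte quality and uses PM as the starting state. The labels used here give no age, no culture medium and no statement on whether 1 animal gave several samples, and the p-values below therefore measure only the spread among these arrays, which may be technical, and their small number limits the precision.

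TGF-beta family ligands bind pairs of serine/threonine kinase receptors, which phosphorylate receptor-activated SMADs, and these enter the nucleus together with SMAD4 to regulate target genes. SMAD6 and SMAD7 block this step at the receptor and are themselves induced by the pathway, while GREM1 and BMPER act outside the cell by binding BMPs. In the ovarian follicle the oocyte secretes the family members GDF9 and BMP15, and cumulus cells respond with transcripts of matrix expansion and of BMP antagonism, GREM1 among them.

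Values are log2 of the deposited intensity, so a step of 1 is a doubling, and ± after a group mean is the SD and after a difference the standard error of the limma fit. Levels of different probe sets are not compared with each other. The array medians, which lay between 5.34 and 5.53, serve as a rough guide to dim signal, and a fold against a group below them is at best a lower bound. The cumulus markers FST, INHA and SERPINE2 were far above these medians on every array, at 11.48 or more for FST, 13.05 or more for INHA and 14.14 or more for SERPINE2. Of the 14 cumulus and granulosa markers measured, 12 were above the median on every array, all but KITLG and WT1. The summed linear intensity of the 14 ranged from 62301 to 73713 in PM, from 50937 to 62961 in IVM and from 43726 to 52330 in VVM, and 7 of them were higher and none lower in IVM than in VVM, with a median log2 difference of 0.72. In VVM against PM, 8 were lower and 1 higher, and in IVM against PM 6 were lower and 3 higher. The part of these marker levels in the differences below was not tested. The bacterial hybridization controls, spiked in at hybridization, differed between the groups without overlap, at 9.89 to 10.28 in PM, 10.41 to 11.32 in VVM and 11.46 to 12.18 in IVM, so their level and the group cannot be told apart. In such bulk samples, fewer cells of a type and less RNA per cell cannot be told apart either.

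SMAD7, the inhibitory SMAD that blocks both TGF-beta and BMP receptors, was high only in the IVM group among these 3 groups. Its single probe set (MmugDNA.37206.1.S1_at) read 9.26, 9.59 and 9.25 on the 3 IVM arrays, 5.22, 5.61, 5.55 and 5.65 on the 4 VVM arrays and 6.10, 5.36, 5.07 and 6.87 on the 4 PM arrays. Every IVM array lay above every other array, while PM and VVM overlapped. The group means were 9.37 ± 0.19 (SD, n = 3) in IVM, 5.51 ± 0.20 (SD, n = 4) in VVM and 5.85 ± 0.81 (SD, n = 4) in PM. SMAD7 was thus 14.5-fold higher in IVM than in VVM (log2 difference 3.86 ± 0.34) and 11.4-fold higher than in PM (3.51 ± 0.34). The difference between VVM and PM was -0.35 ± 0.32. Of the 4 PM arrays 1, and of the 4 VVM arrays 1, read below their array median. The VVM readings lay near the VVM array medians of 5.43 to 5.49, so the fold against VVM may be a lower bound.

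SMAD6, the inhibitory SMAD that acts mainly on BMP receptor signalling, also had IVM on top, and here VVM averaged above PM. Its brighter probe set (MmugDNA.32423.1.S1_at) read 8.94, 9.33 and 7.14 in IVM, 5.58, 4.69, 6.12 and 6.13 in VVM and 5.02, 4.44, 4.53 and 5.94 in PM. IVM 3 was the lowest of the IVM arrays and still lay above all 8 others, and PM and VVM overlapped. The means were 8.47 ± 1.17 (SD, n = 3) in IVM, 5.63 ± 0.68 (SD, n = 4) in VVM and 4.98 ± 0.69 (SD, n = 4) in PM. IVM exceeded VVM 7.16-fold (log2 difference 2.84 ± 0.54) and PM 11.2-fold (3.49 ± 0.54), the latter at best a lower bound because 3 of the 4 PM arrays were below their array medians.

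The dimmer SMAD6 probe set (MmugDNA.41393.1.S1_at) gave the same direction with smaller steps. It read 6.30, 6.73 and 6.33 in IVM, 5.79, 6.0, 5.98 and 5.74 in VVM and 5.46, 5.40, 5.56 and 5.62 in PM. On this probe set the 3 groups did not overlap, with log2 differences of 0.58 ± 0.13 for IVM minus VVM, 0.94 ± 0.13 for IVM minus PM and 0.37 ± 0.12 for VVM minus PM.

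**Figure D1:**
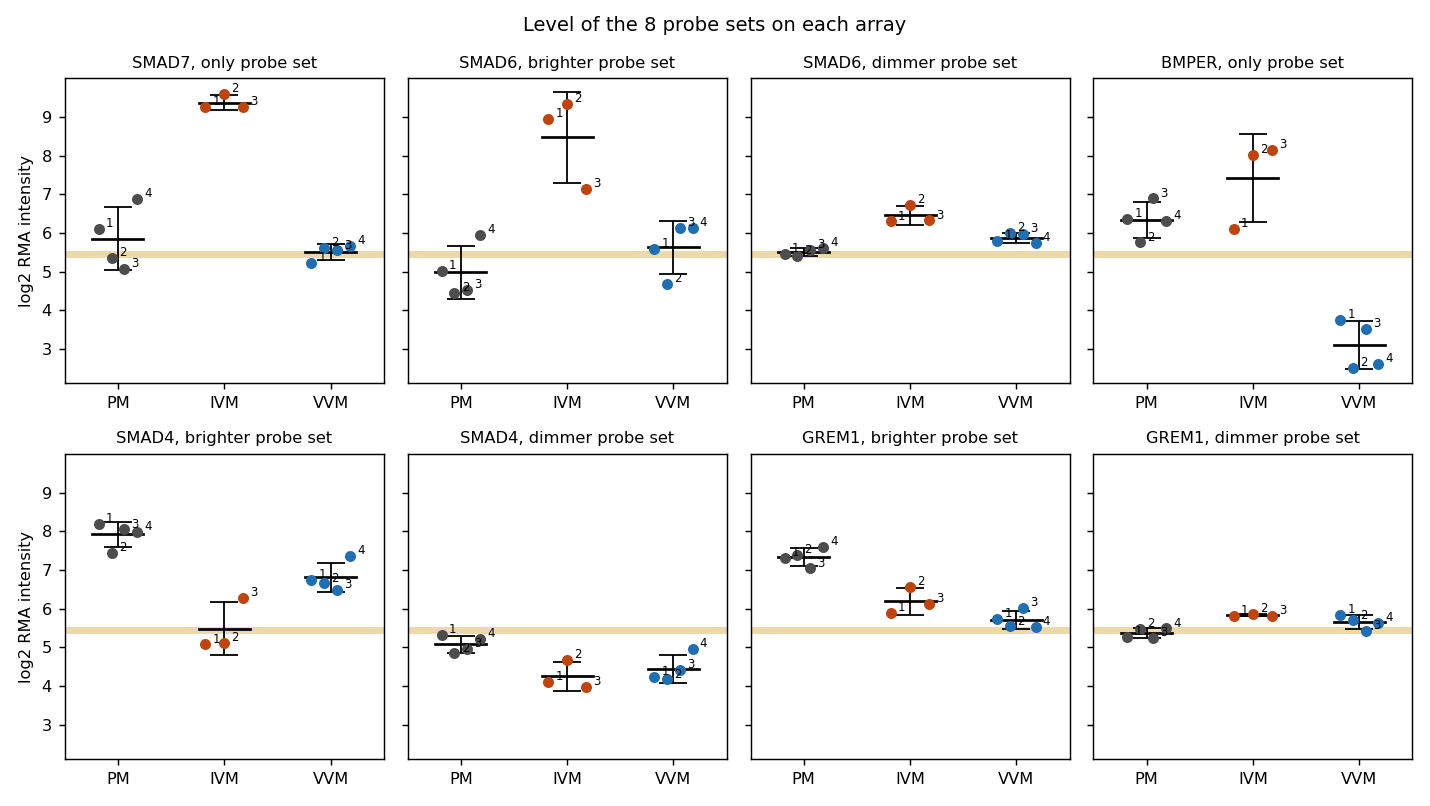
Log2 intensity of the 8 probe sets of SMAD6, SMAD7, BMPER, GREM1 and SMAD4 on each array (points, numbered by replicate) in PM, IVM and VVM, with the group mean (line), its SD (bar) and the range of the array medians (tan band). All 3 IVM arrays stand above the others for SMAD7 and for both SMAD6 probe sets, and all 4 VVM arrays of BMPER lie below the band.

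Among the PM arrays, PM 4 and PM 1 were the highest for both SMAD7 and the brighter SMAD6 probe set. The same arrays were the highest in PM for the summed linear intensity of 8 measured theca and stroma markers, at 2092 and 1551 against 802 in PM 2 and 615 in PM 3, and for that of 11 endothelial markers, at 921 and 797 against 656 and 546. Theca sums ranged from 682 to 1197 in IVM and from 1063 to 1620 in VVM, and 4 of the 8 theca markers were below the median on each array. Endothelial sums ranged from 621 to 690 in IVM and from 612 to 1384 in VVM. On each array 3 or 4 of the 11 endothelial markers were below the median, KDR and EMCN on all 11 arrays. The part of either cell type in the spread among the PM arrays was not tested. PM 1 also stood out for 11 oocyte markers, whose sum was 2651 there and 729 to 1185 on the other arrays.

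BMPER, a secreted protein of the chordin type that binds BMPs and can either block or aid them, was low in VVM and not in the other groups. Its probe set (MmugDNA.29599.1.S1_at) read 3.75, 2.51, 3.52 and 2.62 in VVM, 6.36, 5.76, 6.89 and 6.31 in PM and 6.11, 8.02 and 8.15 in IVM. All 4 VVM arrays lay below every PM and IVM array and below their array medians. IVM 1 lay inside the PM range, and IVM 2 and IVM 3 lay above it. The means were 3.10 ± 0.63 (SD, n = 4) in VVM, 6.33 ± 0.47 (SD, n = 4) in PM and 7.42 ± 1.14 (SD, n = 3) in IVM.

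Between the matured groups, the log2 difference of BMPER was 4.32 ± 0.49 between IVM and VVM and -3.23 ± 0.45 between VVM and PM, which are folds of 20.0 and 9.38 and at best lower bounds. Between IVM and PM it was 1.09 ± 0.49, a fold of 2.13, and it was 1.75 without IVM 1, 0.80 without IVM 2 and 0.73 without IVM 3. The summed intensity of 8 leukocyte markers was 3023 in VVM 3, 1362 in VVM 2, 527 in VVM 1 and 458 in VVM 4. BMPER read 3.52 in VVM 3, 2.51 in VVM 2, 3.75 in VVM 1 and 2.62 in VVM 4. Leukocyte sums ranged from 1255 to 1469 in PM and from 523 to 747 in IVM. The part of leukocytes in these values was not tested. Without PM 1, VVM 2 and VVM 3 together, the IVM minus VVM difference was 4.24 for BMPER, 3.93 for SMAD7 and 2.62 for SMAD6.

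GREM1, the DAN-family BMP antagonist that cumulus cells make in response to oocyte factors, was highest in PM on its brighter probe set. That probe set read 7.31, 7.40, 7.04 and 7.59 in PM, 5.88, 6.57 and 6.13 in IVM and 5.74, 5.54, 6.02 and 5.54 in VVM. Every PM array lay above every matured array, and IVM and VVM overlapped. PM averaged 7.34 ± 0.23 (SD, n = 4), IVM 6.19 ± 0.35 (SD, n = 3) and VVM 5.71 ± 0.23 (SD, n = 4). GREM1 was 2.21-fold lower in IVM than in PM (log2 difference -1.14 ± 0.19) and 3.08-fold lower in VVM than in PM (-1.63 ± 0.18), and IVM and VVM differed by 0.48 ± 0.19.

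The dimmer GREM1 probe set (MmugDNA.23182.1.S1_at) went the other way. It read 5.28, 5.49, 5.24 and 5.49 in PM, 5.82, 5.87 and 5.82 in IVM and 5.85, 5.70, 5.42 and 5.64 in VVM. It was 0.46 ± 0.12 higher in IVM than in PM and 0.28 ± 0.11 higher in VVM than in PM, all near the array medians. The direction given for GREM1 therefore rests on 1 of its 2 probe sets, and the mean of both was -0.34 for IVM minus PM and -0.67 for VVM minus PM.

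SMAD4, the common-mediator SMAD, was highest in PM and lowest in IVM. Its brighter probe set (MmuSTS.1450.1.S1_at) read 8.19, 7.44, 8.05 and 7.99 in PM, 6.74, 6.65, 6.49 and 7.36 in VVM and 5.07, 5.11 and 6.27 in IVM. No array of one group overlapped another group. The means were 7.92 ± 0.33 (SD, n = 4) in PM, 6.81 ± 0.38 (SD, n = 4) in VVM and 5.49 ± 0.68 (SD, n = 3) in IVM, where 2 of the 3 arrays were below their array median. IVM was 2.50-fold lower than VVM (log2 difference -1.32 ± 0.31) and 5.39-fold lower than PM (-2.43 ± 0.31), and VVM was 2.15-fold lower than PM (-1.11 ± 0.28).

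The dimmer SMAD4 probe set (MmugDNA.30924.1.S1_at) was below the array median on all 11 arrays. It read 5.32, 4.84, 4.96 and 5.21 in PM, 4.10, 4.67 and 3.98 in IVM and 4.23, 4.17, 4.42 and 4.96 in VVM. Both matured groups were again lower than PM, by -0.83 ± 0.22 and -0.64 ± 0.20, and IVM and VVM overlapped with a difference of -0.19 ± 0.22.

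**Figure D2:**
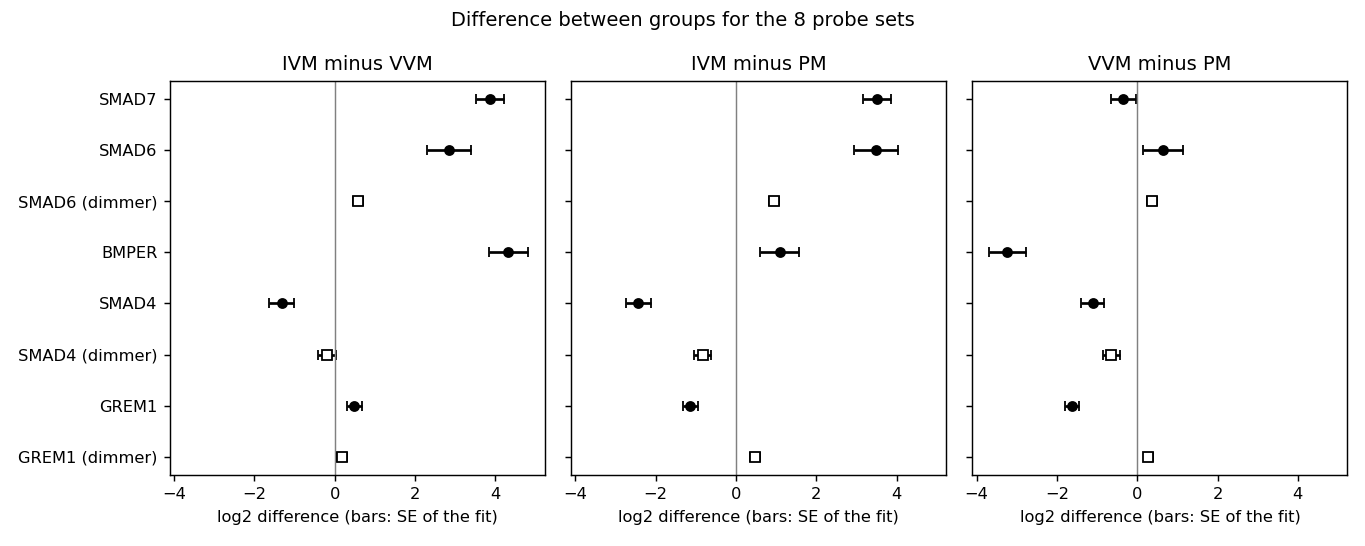
Log2 differences between groups for the 8 probe sets of the 5 genes, with the standard error of the limma fit as the bar. SMAD7, SMAD6 and BMPER lie to the right for IVM minus VVM and SMAD4 to the left, and the 2 probe sets of GREM1 lie on opposite sides of 0 in both comparisons with PM.

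The order of the groups thus differed between the members. SMAD7 and both SMAD6 probe sets had IVM on top, with PM and VVM overlapping for SMAD7 and the brighter SMAD6 probe set and VVM above PM for the dimmer one, BMPER had VVM at the bottom, GREM1 on its brighter probe set had PM on top, and SMAD4 stepped down from PM through VVM to IVM. The comparisons of IVM and of VVM with PM share the 4 PM arrays, so their values are not independent of each other. Over the 11 arrays, which fall into 3 groups, the genes most like each member among the 14131 others were ranked by Pearson's r as a description. For SMAD7 these were MRPL48 (r = 0.974), ST8SIA5 (0.968), GPATCH4 (0.965) and TANGO6 (0.963), and for SMAD6 they were RPS26 (0.969), SDHAF4 (0.965), ZNF646 (0.964) and CYTH1 (0.960). BMPER was most like EXOSC2 (r = 0.987), OGFOD1 (0.967), NEDD4L (0.965) and MRPL11 (0.964), and NEDD4L encodes a ubiquitin ligase that acts on receptor-activated SMADs. GREM1 was most like NECTIN1 (r = 0.976), TCEA2 (0.973), DENND2B (0.973) and TPM1 (0.969). SMAD4 was most like NUB1 (r = 0.976), ANAPC13 (0.973), TTC28 (0.973) and CCNB2 (0.968). Only NEDD4L of these 20 genes belongs to the pathway lists below.

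To place the 5 genes in their pathway, 174 other genes were listed by role, and 132 of them were measured. Between IVM and VVM, 15 of the 132 were higher in IVM and 8 lower at an adjusted p under 0.05, which is 11.4% and 6.06% of them. Among all 14132 genes the shares were 9.06% higher and 7.63% lower, so the pathway as a whole was called about as often as other genes. The median log2 difference was 0.05 over the pathway genes and 0.08 over all genes. Between IVM and PM, 39 were higher and 31 lower (29.5% and 23.5%) against 25.0% and 20.9% of all genes, and between VVM and PM 31 were higher and 31 lower (23.5% each) against 18.0% and 21.8%. The medians were 0.16 and -0.0007 over the pathway against 0.12 and 0.04 over all genes, and the shares were again near those of all genes. Centring each array on its median moved the median of all genes from 0.12 to -0.03 for IVM minus PM and from 0.04 to -0.07 for VVM minus PM. The VVM minus PM split of the pathway moved to 25 higher and 38 lower. That of all 14132 genes moved the same way, from 2548 higher and 3074 lower to 1708 higher and 3530 lower. With the hybridization controls as a covariate, limma called 6 pathway genes between IVM and VVM (GDF11, ENG, CTDSP2, EP300, PTX3 and AREG). It called 17 between VVM and PM and 0 between IVM and PM, where 32 of 132 had an unadjusted p under 0.05. Over all 14132 genes this fit called 197 higher and 132 lower for IVM minus VVM and 683 and 894 for VVM minus PM. For IVM minus PM it called 0 higher and 2 lower, so the calls fell among all genes and not only in the pathway.

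**Figure D3:**
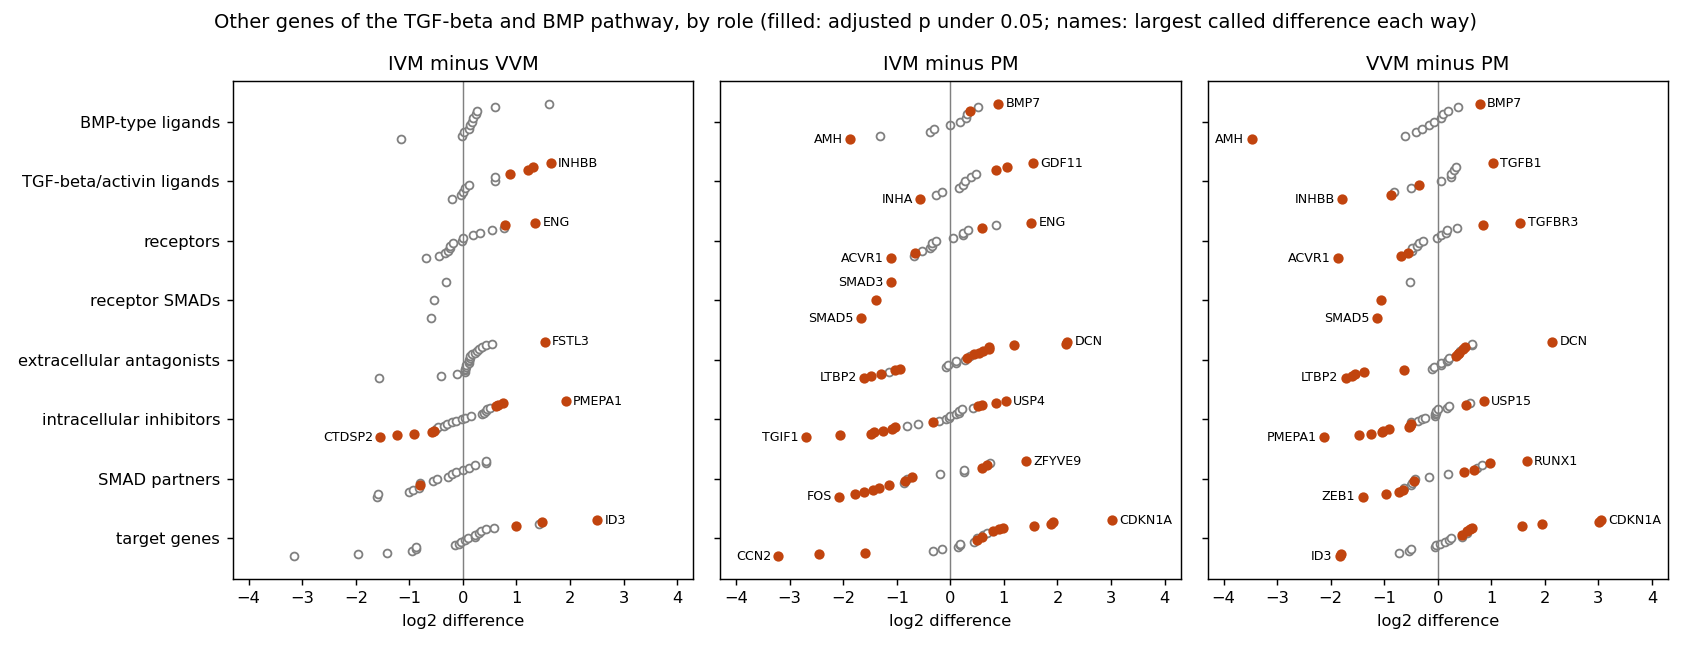
Log2 differences of the measured pathway genes, in rows by role, for the 3 comparisons; filled points passed an adjusted p under 0.05 in the limma fit and the names mark the largest called difference each way. ENG, FSTL3, PMEPA1 and ID3 lead to the right in their rows for IVM minus VVM, and the 3 receptor SMADs all lie left of 0 in both comparisons with PM.

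Of the ligands, 4 of 11 measured in the TGF-beta, activin and nodal list were higher in IVM than in VVM and none was lower, and none of 11 BMP-type ligands was called between these groups. The 4 were GDF1, GDF11, INHBA and INHBB, and 2 of 11 were called without IVM 2 or VVM 4 and 1 of 11 without VVM 1. GDF11, an activin-like ligand, read 6.32, 6.34 and 5.90 in IVM, 5.11, 4.98, 4.78 and 5.06 in VVM and 4.61, 4.78, 4.70 and 4.48 in PM. The IVM arrays stood above all others, with log2 differences of 1.21 ± 0.14 from VVM (limma adjusted p = 0.000576) and 1.55 ± 0.14 from PM, although all VVM and PM values were below the array medians. GDF1 was 0.89 ± 0.21 higher in IVM than in VVM (limma adjusted p = 0.0217), a call lost without IVM 2 or VVM 1, at 0.68 to 0.79. INHBA and INHBB, the activin subunits, were 1.30 ± 0.33 and 1.64 ± 0.42 higher in IVM than in VVM (limma adjusted p = 0.0257 and 0.0270). Each was called on 1 of 2 probe sets, and INHBA is also among the cumulus and granulosa markers given above. Leaving out any of 5 single arrays ended the call of each gene. For INHBA these were VVM 1, VVM 3, VVM 4, IVM 1 and IVM 3 (differences of 1.03 to 1.35), and for INHBB they were VVM 1, VVM 3, VVM 4, IVM 2 and IVM 3 (1.26 to 1.65). Against PM, TGFB1 rose in both matured groups, by 1.06 ± 0.14 in IVM and 1.03 ± 0.13 in VVM, and BMP7 by 0.89 ± 0.13 and 0.79 ± 0.12. BMP7 was called on 4 of 5 probe sets in IVM and on 2 of 5 in VVM. AMH, the anti-Mullerian hormone of growing follicles, was lower than in PM in both matured groups. The differences were -3.48 ± 0.49 in VVM (limma adjusted p = 0.000358) and -1.87 ± 0.53 in IVM (limma adjusted p = 0.0160). The IVM call was lost without IVM 1, at -1.30 (limma adjusted p = 0.0730).

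Of 15 measured receptors and co-receptors, 2 were higher and none lower in IVM than in VVM. ENG, the co-receptor endoglin, read 9.21, 9.55 and 9.10 in IVM, 7.74, 7.96, 8.19 and 7.84 in VVM and 7.80, 7.52, 7.95 and 7.81 in PM. The IVM arrays lay above all others and PM and VVM overlapped, as for SMAD7, with differences of 1.35 ± 0.15 from VVM (limma adjusted p = 0.000550, called on 1 of 2 probe sets) and 1.51 ± 0.15 from PM. The other was AMHR2, the type II receptor of AMH and also a cumulus and granulosa marker, at 0.78 ± 0.16 (limma adjusted p = 0.0111).

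The receptor-activated SMADs are the direct partners of SMAD4, and 3 of the 5 listed were measured, SMAD2, SMAD3 and SMAD5. SMAD2 read 11.44, 11.74, 11.52 and 11.30 in PM, 10.34, 9.68 and 10.31 in IVM and 10.42, 10.74, 10.17 and 10.41 in VVM. SMAD3 read 11.21, 12.24, 11.46 and 11.58 in PM, 10.42, 10.34 and 10.78 in IVM and 11.01, 11.35, 10.99 and 11.06 in VVM. SMAD5 read 9.73, 9.31, 8.77 and 9.80 in PM, 7.36, 7.71 and 8.11 in IVM and 8.39, 8.02, 8.10 and 8.54 in VVM. PM was the highest group for each, and its arrays did not overlap IVM. In IVM all 3 fell against PM, with differences of -1.39 ± 0.19, -1.11 ± 0.22 and -1.68 ± 0.26 for SMAD2, SMAD3 and SMAD5 (limma adjusted p = 0.000281, 0.00241 and 0.000596). SMAD2 and SMAD5 also fell in VVM, at -1.07 ± 0.17 and -1.14 ± 0.24, and SMAD3 had -0.52 ± 0.20 (limma adjusted p = 0.0692). On these brightest probe sets none of the 3 was called between IVM and VVM, and of all 14 probe sets 1 dimmer SMAD5 probe set was, at -0.53 (limma adjusted p = 0.0495). Not all of their probe sets passed the test between IVM and PM: 4 of 4 did for SMAD2, 3 of 4 for SMAD3 and 3 of 6 for SMAD5. Between VVM and PM, 3 of 4 passed for SMAD2 and 2 of 6 for SMAD5.

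Of 21 other extracellular antagonists and binding proteins, the class of BMPER and GREM1, only FSTL3 was called between IVM and VVM. FSTL3, a follistatin-like protein that binds activins and GDF11, read 11.83, 11.51 and 11.69 in IVM, 10.18, 9.98, 10.06 and 10.37 in VVM and 9.40, 10.31, 9.50 and 8.85 in PM. All IVM arrays were above all others, by 1.53 ± 0.27 against VVM (limma adjusted p = 0.00439) and 2.16 ± 0.27 against PM. Without PM 1, VVM 2 and VVM 3 the first of these was 1.40 (limma adjusted p = 0.0573). Against PM, 9 of the 21 were higher and 5 lower in IVM, and 6 were higher and 5 lower in VVM. FST, the main activin-binding protein, fell by 1.04 in IVM against PM (-1.04 ± 0.24), and LTBP1 and LTBP2, which tether latent TGF-beta to the matrix, fell by 1.48 and 1.61 in IVM and by 1.54 and 1.72 in VVM. LTBP1 was called on 2 of 2 probe sets and LTBP2 on 1 of 3 in both matured groups. CHRD, the BMP antagonist chordin, rose by 0.53 ± 0.10 in IVM and 0.40 ± 0.10 in VVM. For DCN and BGN, matrix proteoglycans in this list, the direction against PM depends on the probe set.

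Of 23 other intracellular inhibitors and turnover factors, the class of SMAD6 and SMAD7, 4 passed the test as higher in IVM and 5 as higher in VVM. PMEPA1, a membrane protein that sequesters receptor-activated SMADs, read 9.06, 8.59 and 9.25 in IVM, 7.90, 6.75, 6.46 and 7.09 in VVM and 8.75, 10.38, 8.82 and 8.76 in PM. VVM was below both other groups without overlap, as for BMPER, with 1.92 ± 0.42 for IVM minus VVM (limma adjusted p = 0.0143, called on 4 of 4 probe sets) and -2.13 ± 0.39 for VVM minus PM. Without PM 1, VVM 2 and VVM 3 the IVM minus VVM difference was 1.48 (limma adjusted p = 0.126).

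TGIF1, a nuclear corepressor of SMAD2 and SMAD3, read 10.46, 10.31, 10.75 and 10.35 in PM, 8.99, 9.33, 8.79 and 8.83 in VVM and 7.92, 7.42 and 7.96 in IVM. Its 3 groups did not overlap and stepped down in the order seen for SMAD4, with -1.22 ± 0.18 for IVM minus VVM (limma adjusted p = 0.00189) and -2.70 ± 0.18 for IVM minus PM. CTDSP2, a phosphatase of SMAD linker sites, had the same order, at -1.55 ± 0.14 for IVM minus VVM (limma adjusted p = 0.000178) on 1 of its 2 probe sets. SMURF2, a ubiquitin ligase recruited to receptors by SMAD7, fell by 1.49 in IVM and by 1.03 in VVM against PM. NEDD4L, named here for its likeness to BMPER over these same arrays, averaged 0.75 ± 0.13 higher in IVM than in VVM. That value is a description with no test.

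**Figure D4:**
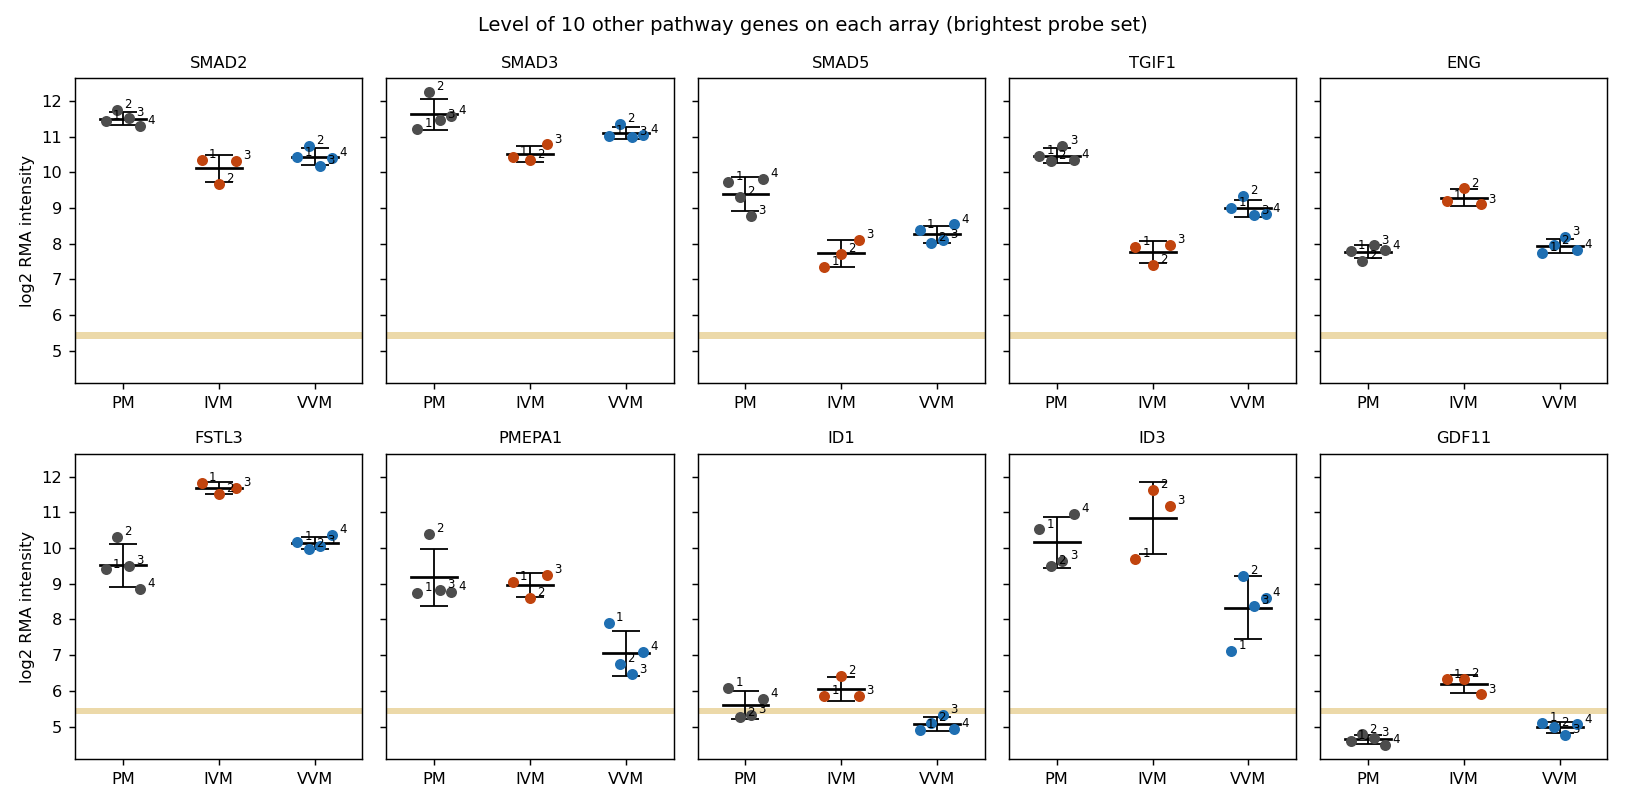
Log2 intensity on each array (points, numbered by replicate) for pathway genes described beside the 5 members, with group mean (line), SD (bar) and the range of array medians (tan band). ENG and FSTL3 have all 3 IVM arrays on top, PMEPA1 has all 4 VVM arrays at the bottom, and TGIF1 steps down from PM through VVM to IVM.

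Of 21 measured target genes of the pathway, 3 were higher and none lower in IVM than in VVM, namely ID1, ID3 and FN1. ID3, an inhibitor of DNA binding and a direct BMP target, read 9.70, 11.62 and 11.18 in IVM, 7.11, 9.22, 8.38 and 8.60 in VVM and 10.52, 9.50, 9.64 and 10.96 in PM. ID1, of the same family, read 5.87, 6.43 and 5.85 in IVM, 4.90, 5.11, 5.33 and 4.93 in VVM and 6.09, 5.26, 5.34 and 5.77 in PM. IVM and VVM did not overlap for either gene, IVM and PM did, and PM 1 and PM 4 were the highest PM arrays for both, as they were for SMAD6 and SMAD7. The IVM minus VVM differences were 2.51 ± 0.56 for ID3 (limma adjusted p = 0.0148, called on 1 of 3 probe sets) and 0.98 ± 0.22 for ID1 (limma adjusted p = 0.0150). Both calls were lost without IVM 2, where the differences were 2.12 (limma adjusted p = 0.0718) and 0.79 (limma adjusted p = 0.0685). FN1, the matrix protein fibronectin, was 1.48 ± 0.36 higher in IVM than in VVM (limma adjusted p = 0.0228), and its call was lost without IVM 2, IVM 3 or VVM 1, at 1.41 to 1.47. None of the 3 calls on target genes therefore held without IVM 2. Against PM, 9 targets were higher and 3 lower in IVM, and 8 were higher and 2 lower in VVM. Of 17 SMAD partners, 1 was called between IVM and VVM, the coactivator EP300, at -0.81 ± 0.14 (limma adjusted p = 0.00396). This call held on 3 of its 6 probe sets, the probe set with the largest spread gave 0.37, and without PM 1, VVM 2 and VVM 3 the value was -0.71 (limma adjusted p = 0.0521). Of 11 measured GDF9 and cumulus expansion genes, the split between the matured groups was 2 higher in IVM and 2 higher in VVM. PTX3, a protein of the expanded matrix, read 6.54, 3.89 and 2.94 in IVM, 9.15, 9.63, 10.97 and 7.70 in VVM and 2.63 to 2.76 in PM, and IVM minus VVM was -4.90 ± 0.81 (limma adjusted p = 0.00340). AREG, the EGF-like ligand amphiregulin, read 8.08, 6.29 and 5.52 in IVM, 11.05, 11.66, 12.36 and 10.40 in VVM and 4.32 to 5.44 in PM, and IVM minus VVM was -4.73 ± 0.58 (limma adjusted p = 0.000757). All VVM arrays lay above all IVM arrays for both genes. For this list the count against PM was 7 higher and none lower for IVM and 7 higher and 2 lower for VVM.

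**Figure D5:**
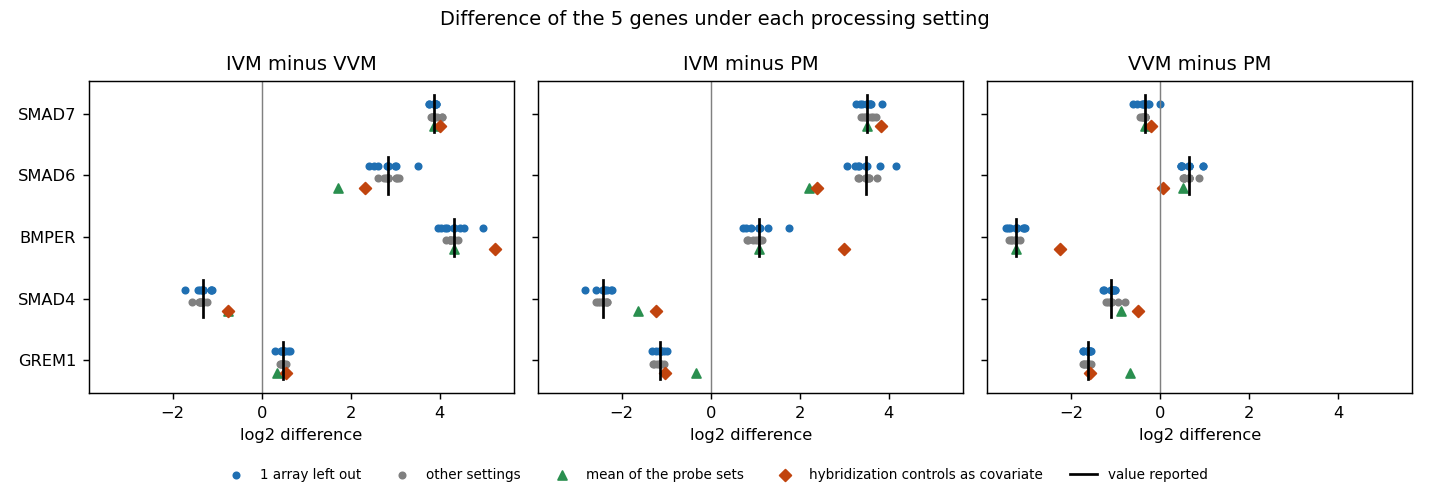
Log2 differences of the 5 members, by the brightest probe set (the mean of all probe sets for the triangles), under the main setting (black line) and the alternatives (points). SMAD7, SMAD6 and BMPER stay right of 0 and SMAD4 left of 0 for IVM minus VVM under all settings drawn, and IVM minus VVM of BMPER reaches 5.24 with the hybridization control covariate.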

How the data were processed

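RNA was amplified linearly before labelling, per the labels' protocols. The deposited values are intensity on a linear scale, made by the authors with Affymetrix Expression Console and RMA (background correction, quantile normalization and probe summary), per the submitters' processing notes, which give no versions. RMA forces the probe intensities of all arrays to 1 distribution before the summary, so a shift of all transcripts cannot be seen. After the summary the array medians still differed, at 5.34 to 5.36 in PM, 5.43 to 5.49 in VVM and 5.45 to 5.53 in IVM. Log2 was taken with no pseudocount. Of 52865 probe sets, 99 controls were left out of the tests. Symbols came from the array annotation, whose rows matched the current RefSeq annotation by gene identifier in 24629 of 25330 cases. Of the 52766 probe sets, 24956 had 1 symbol, 361 several and 27449 none. A gene stands for its probe set with the highest mean log2.

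One linear model with 3 group means was fitted to all 11 arrays with limma 3.58.1 in R 4.3.3 (8 residual and 3.30 prior degrees of freedom). Two-sided p-values were Benjamini-Hochberg adjusted across the 52766 probe sets in each comparison, and genes are called at an adjusted p under 0.05. Per pathway list and comparison, up to 4 called genes with the largest difference, the receptor SMADs and the antagonists could be named. The model was tested on simulated data with independent normal noise, where 100 of 52766 probe sets had a log2 change of 1 and 100 a change of 2. Of those changed by 1, it recovered 66% for IVM minus VVM, 64% for IVM minus PM and 69% for VVM minus PM. False calls were 9 of 167, 7 of 165 and 5 of 168. Far more genes were called in the real data, so these shares do not give the sensitivity of the real comparisons. The members and lists were chosen with earlier results of these data known. No sequences were used here, and genome positions served only to order the RefSeq genes for the neighbours given at the end.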

Additional observations from a re-analysis of the deposited data

Results flagged for a closer look

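In PM and VVM, none of the 8 probe sets of SMAD4, SMAD6, SMAD7, BMPER and GREM1 had an array set apart by Dixon's criterion for groups of 4. The 3 IVM arrays were not tested this way, so an outlying IVM array could not be flagged. Single IVM arrays did stand apart by value. IVM 3 read 6.27 for SMAD4 against 5.07 and 5.11, and IVM 1 read 6.11 for BMPER against 8.02 and 8.15. Over 172 groups of 4 arrays tested on 86 probe sets, 8 had such an array, and chance alone flags about 1 in 20 groups. PMEPA1 was 10.38 in PM 2 against 8.75 to 8.82 on the other PM arrays. HAS2 was 6.90 in PM 2 against 4.35 to 4.72, and INHA was 14.01 in PM 3 against 13.78 to 13.80. TGFBI was 6.68 in PM 1 against 4.11 to 4.47, and FBN2 was 4.99 there against 5.35 to 5.41. In VVM 1, CCN2 was 8.45 against 9.87 to 10.05 on the other VVM arrays and CCN1 was 8.73 against 10.996 to 11.257. MEX3C, a neighbour of SMAD4, was 9.16 in VVM 3 against 9.71 to 9.79.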

How the results depend on the processing

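The small number of arrays limits the precision, and signal over background was not used, so the low levels of SMAD6 in PM, SMAD4 in IVM and SMAD7 and BMPER in VVM are limits. Leaving out 1 array at a time, IVM minus VVM ranged from 3.75 to 3.92 for SMAD7, 2.41 to 3.51 for SMAD6, 3.96 to 4.98 for BMPER, -1.72 to -1.12 for SMAD4 and 0.30 to 0.64 for GREM1. IVM minus PM ranged from 3.25 to 3.85 for SMAD7, 3.06 to 4.15 for SMAD6, 0.73 to 1.75 for BMPER, -2.83 to -2.23 for SMAD4 and -1.33 to -0.99 for GREM1. VVM minus PM ranged from -0.61 to -0.01 for SMAD7, 0.47 to 0.97 for SMAD6, -3.45 to -3.03 for BMPER, -1.29 to -0.9995 for SMAD4 and -1.73 to -1.54 for GREM1. The pathway calls ranged from 16 to 26, from 57 to 73 and from 52 to 65 for IVM minus VVM, IVM minus PM and VVM minus PM, against 23, 70 and 62 with all arrays. With the mean of all probe sets of a gene, IVM minus VVM was -0.76 for SMAD4 and 1.71 for SMAD6, IVM minus PM was -1.63, 2.22 and -0.34 for SMAD4, SMAD6 and GREM1, and VVM minus PM was -0.67 for GREM1. With the hybridization controls as a covariate, IVM minus VVM was -0.75 ± 0.43 for SMAD4 and 5.24 ± 0.68 for BMPER, with 6 pathway calls. In that fit IVM minus PM was -1.23 ± 0.74 for SMAD4, 2.39 ± 1.43 for SMAD6 and 2.996 ± 1.17 for BMPER. It gave 0 calls in limma for IVM minus PM (32 of 132 at an unadjusted p under 0.05). VVM minus PM was -0.48 ± 0.44 for SMAD4 and -2.24 ± 0.70 for BMPER, with 17 calls. These standard errors were larger than those of the main fit, and the calls among all genes fell as well. A required change of at least 2-fold left 13, 43 and 30 calls, by construction. Without PM 1, VVM 2 and VVM 3 together, 38 genes were called for VVM minus PM, with fewer arrays. BMPER gave no value at a mean log2 of at least 6.

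The replicate numbers of the titles do not pair the arrays by the labels, and same-numbered arrays had residual correlations of -0.107 to 0.101, with 4 of 11 arrays closest to their own number. With the numbers as a replicate block, 20, 66 and 60 pathway genes were called.

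Over 234 differences of single named genes, 119 of them called, 5321 of 5766 alternative values counted as the same. For a called difference this means that direction and call were both kept. For a difference that was not called, a change of sign also counted as the same, so direction was not always kept. Among alternatives to called differences, 11 values reversed the direction. Without probe sets that can cross-hybridize, DCN was -1.07 for IVM minus PM and -1.33 for VVM minus PM, and BGN 0.51 and 0.18. FSTL1 for IVM minus PM was -0.56 as the mean of its probe sets and -1.40 on the one with the largest spread, which for EP300 gave 0.37 for IVM minus VVM. With the hybridization controls as a covariate, IVM minus PM was -0.0002 for AREG, 0.21 for ACVR1, -0.97 for NBL1 and 0.092 for APBA2. Apart from the changes of probe set, the cause was not tested.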

Other observations

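The measured genes that lie nearest to each member in the RefSeq order were looked up after the members' levels were known, to see whether they had similar values. None of the 10 neighbours was called between IVM and VVM in the limma fit, in which 9.06% of all genes were higher and 7.63% lower. Next to SMAD7, DYM had a log2 difference of -0.24 ± 0.15 and ZBTB7C one of -0.17 ± 0.26 for IVM minus VVM. BMPER lies between DPY19L1, at -0.18 ± 0.28, and BBS9, at 0.02 ± 0.22. The neighbours of SMAD6 are ZWILCH, at 0.55 ± 0.32, and SMAD3, at -0.59 ± 0.22, and those of GREM1 are APBA2, at -0.23 ± 0.12, and AVEN, at 0.56 ± 0.32. These last are not adjacent to GREM1, with 8 unmeasured protein-coding genes before APBA2 is reached and 5 before AVEN. Beside SMAD4, ME2 was at -0.36 ± 0.37 and MEX3C at -0.38 ± 0.21. MEX3C, which encodes an RNA-binding ubiquitin ligase, was lower than in PM in both matured groups, as SMAD4 was, by -1.93 ± 0.21 in IVM (limma adjusted p = 6.3e-05) and -1.54 ± 0.19 in VVM (limma adjusted p = 0.000165). Against PM, 5 of the 10 neighbours were lower and 1 higher in IVM, where 20.9% of all genes were lower and 25.0% higher, and 3 were lower and 1 higher in VVM, where 21.8% and 18.0% were. DPY19L1 was lower in both groups, at -1.09 ± 0.28 in IVM and -0.90 ± 0.26 in VVM, and so was ZWILCH, at -0.96 ± 0.32 and -1.50 ± 0.29, whereas SMAD6 was higher in IVM than in PM. The other calls were SMAD3 at -1.11 ± 0.22, APBA2 at -0.33 ± 0.12 and AVEN at 1.25 ± 0.32 in IVM, and ZBTB7C at 0.82 ± 0.24 in VVM. In IVM, leaving out any of 6 single arrays ended the call of APBA2 and any of 4 that of ZWILCH. In VVM, any of 3 ended the calls of ZBTB7C and of DPY19L1. The other neighbour calls held with any 1 array left out.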
